A study of Mus musculus with 18 samples.

Results

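The Hox cluster genes are the 39 genes, of 55450 gene IDs measured, whose symbol is Hox followed by the cluster letter a, b, c or d and a number. They were chosen by symbol alone, but with earlier results of these tumors known, among them the fold change of Hoxb2 between Cbfb labels, so levels, fold changes and p-values of Hox genes are given as a description. Of them 11 lie in the HoxA cluster on chromosome 6, 10 in HoxB on chromosome 11, 9 in HoxC on chromosome 15 and 9 in HoxD on chromosome 2 (GRCm38, the mm10 build). Hox genes encode homeodomain transcription factors, and their order along each cluster matches the order in which they are used along the body axis of the embryo. The number after the cluster letter is the paralog group, which runs from the head end to the tail end. In adult tissue, Polycomb complexes keep much of each cluster silent while trithorax complexes keep the active genes on, and the set that stays on differs between fibroblasts, muscle and epithelia by body position. In the mouse mammary gland, the group 9 genes Hoxa9, Hoxb9 and Hoxd9 are known from combined mutants to be needed for gland growth in pregnancy, and Hoxc8 for where the gland starts to form.

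RNA-seq was done on 18 spontaneous mammary gland tumors, with no treatment and, per the series design, 1 tumor per mouse. By genotype label, 14 tumors were MMTV-Cre(+);Cbfb(het);Pikca(H1047R, het), 1 was MMTV-Cre(+);Cbfb(homo);Pikca(H1047R, het) and 3 were MMTV-Cre(+);Cbfb(wt);Pikca(H1047R, het), called het, homo and wt below. All 18 thus shared the Cre transgene, whose MMTV promoter is active in mammary epithelium, and 1 mutant allele of Pik3ca, which the labels spell Pikca. Cbfb encodes the partner subunit of the RUNX transcription factors, and the labels leave unsaid which stretch of it was altered, as well as age, sex, litter and batch. Numbers after a label name a tumor in order of accession and carry no other meaning. Cbfb itself averaged 5.75 ± 0.63 log2 CPM in het tumors (SD, n = 14) and 5.13 ± 0.82 in wt tumors (SD, n = 3), a difference of 0.61 that did not pass a two-sided exact permutation test (p = 0.147), and stood at 4.19 in the homo tumor. Without wt 1 that difference was 0.985 (exact permutation test, p = 0.0333), and without wt 2 it was 0.177. Without wt 2, het 10 and het 14 it turned to -0.03 (exact permutation test, p = 0.923); het 10 and het 14 held the highest Cbfb levels, 71.1 and 70.6 TPM. Cbfb RNA thus gave no check of the het label, and directions below are those of the labels.

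Levels below are the authors' TPM, a unit scaled by gene length and to a fixed total per tumor, so that genes can be set side by side. Depth was 33210239 to 40974166 rounded expected counts per tumor. A count of 3 corresponds to between 0.0732 and 0.0903 CPM (counts scaled to a fixed library total), the limit below which a zero cannot be told from a low level, for counting error alone. Epcam, an adhesion gene that marks epithelium, was low in 5 of these mammary tumors. It was 5.6 TPM in wt 2, 26.4 in het 10, 27.2 in het 14, 75.1 in het 1 and 133 in het 12, and 331 to 666 TPM in the other 13 tumors. Libraries het 10 and het 14 were nearly alike, with a chi-square of 4.74 per gene where the next closest pair had 102. The labels name them as 2 tumors and they were kept as such, but the counts do not show whether they came from 2 animals, from 1 animal or from 1 tumor. The main results between het and wt tumors are therefore also given without both.

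The DNA just upstream of 4 Hox genes is shown because it is where the annotated transcripts of these genes begin. For HoxA, HoxB and HoxD, the gene shown is the one with the highest median TPM whose 250 bases before the start hold no base of a Hox exon. No HoxC gene in the table met that condition. Hoxd10 is added as the only Hox window with the RUNX letters TGTGGT. The sequences are from RefSeq, GRCm38.p6, written 5′ to 3′ on the gene's strand. Capitals mark CG pairs in the first 3 and the TGTGGT letters in Hoxd10.
Hoxa10 (chr6:52240855-52241104, minus strand): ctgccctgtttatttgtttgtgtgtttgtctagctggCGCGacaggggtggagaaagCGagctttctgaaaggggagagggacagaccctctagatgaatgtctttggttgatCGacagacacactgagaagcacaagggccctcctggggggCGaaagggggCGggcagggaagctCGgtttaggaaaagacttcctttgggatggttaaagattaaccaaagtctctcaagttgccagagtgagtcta
Hoxb4 (chr11:96318017-96318266, plus strand): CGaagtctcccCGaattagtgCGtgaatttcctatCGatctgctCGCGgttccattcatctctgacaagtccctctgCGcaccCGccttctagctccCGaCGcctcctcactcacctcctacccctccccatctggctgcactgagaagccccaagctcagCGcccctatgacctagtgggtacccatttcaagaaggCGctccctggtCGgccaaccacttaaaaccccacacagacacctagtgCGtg
Hoxd8 (chr2:74704365-74704614, plus strand): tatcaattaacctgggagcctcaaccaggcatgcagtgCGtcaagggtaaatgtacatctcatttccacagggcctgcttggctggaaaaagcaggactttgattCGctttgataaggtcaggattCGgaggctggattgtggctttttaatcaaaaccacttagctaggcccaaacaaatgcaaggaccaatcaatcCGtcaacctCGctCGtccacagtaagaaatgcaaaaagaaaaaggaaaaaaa
Hoxd10 (chr2:74691641-74691890, plus strand): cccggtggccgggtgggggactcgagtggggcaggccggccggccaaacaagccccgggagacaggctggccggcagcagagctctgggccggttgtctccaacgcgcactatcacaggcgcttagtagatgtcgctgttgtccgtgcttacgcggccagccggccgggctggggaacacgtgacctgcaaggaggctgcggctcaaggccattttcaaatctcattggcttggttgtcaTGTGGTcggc
Of the 39 genes, 22 had an entry in the RefSeq promoter table, with 24 windows in all. Most of these windows belong to HoxA and HoxD genes, and Hoxb2, Hoxb3, Hoxc6 and Hoxc13 have none. The Hox windows held a median of 12.5 CG pairs per 250 bases, against 6 in all 32817 windows of the table. The letters TGTGGT, searched on both strands, stood in 1 of 24 Hox windows (4.17%) and 14% of all windows. The other RUNX form, TGCGGT, stood in 2 of 24 Hox windows (8.33%) and 5.09% of all windows. The letters TGATNNAT, bound by HOX and PBX proteins together, stood in 4 of 24 Hox windows (16.7%) and 7.69% of all windows. The TATA box letters TATAAA stood in 4 of 24 Hox windows (16.7%) and 12.4% of all windows. Of the 24 Hox windows, 8 held bases of a Hox exon on the same strand. A match describes letters, not binding.

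Most Hox genes were low in every tumor. Of the 39 genes, 19 reached 1 TPM in at least 1 tumor, 7 reached 5 TPM and none had 1 TPM in all 18 tumors. At a limit of 0.5 TPM 26 genes counted as reached, and at 2 TPM 13. Hoxd12 and Hoxd13, the tail-end genes of HoxD that pattern digits, had 0 counts in all 18 tumors, and 11 genes had at most 8 counts in any tumor. By position, 7 of 12 genes of groups 1 to 4, 6 of 11 of groups 5 to 8 and 6 of 16 of groups 9 to 13 reached 1 TPM. Within clusters the number was 5 of 11 in HoxA, 5 of 10 in HoxB, 6 of 9 in HoxC and 3 of 9 in HoxD. The summed TPM of the 39 genes ran from 7.41 in het 8 to 73.79 in the homo tumor. In bulk tumors, fewer cells of a type and less RNA per cell cannot be told apart.

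**Figure D1:**
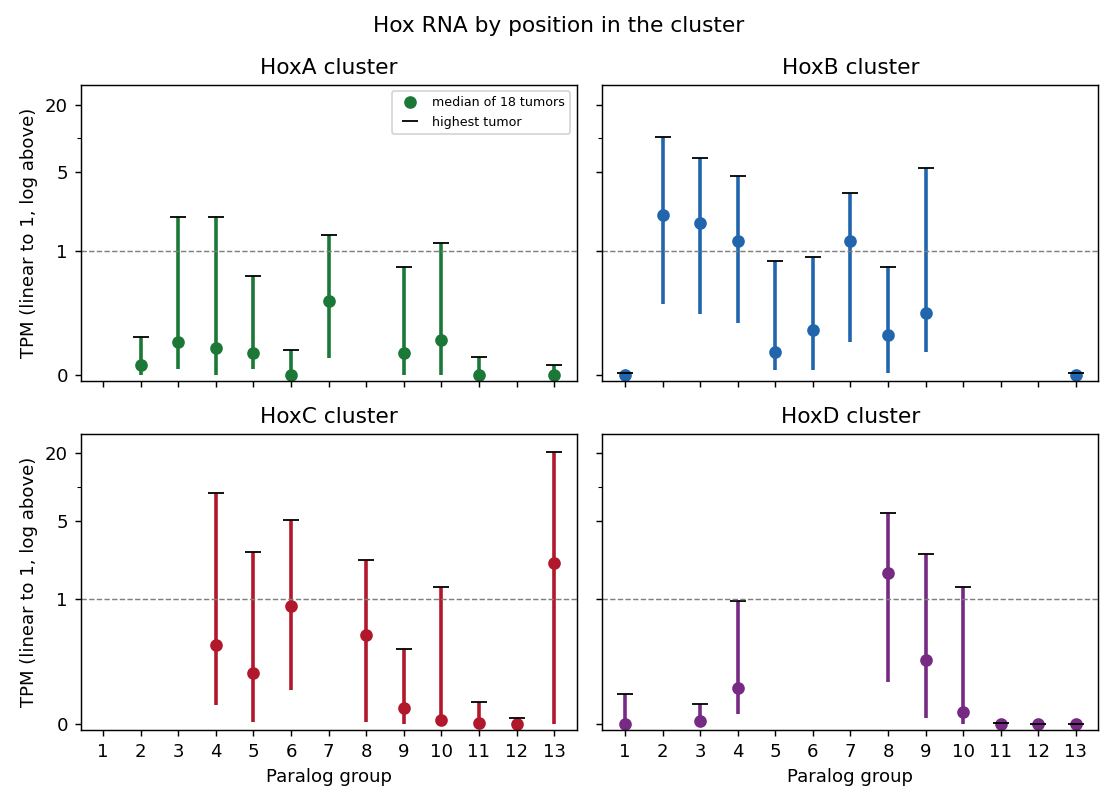
TPM (vertical axis, linear to 1 and logarithmic above) against paralog group (horizontal axis) in each cluster. Points are the median of 18 tumors, coloured lines run from the lowest to the highest tumor, and the dashed line is 1 TPM. Hoxc13 reaches 20.5 TPM at the tail end of HoxC, while Hoxd12 and Hoxd13 lie at 0.

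In the HoxA cluster, levels were low, and most of the genes that reached 1 TPM had their highest TPM in het 12. Hoxa7, an axial patterning gene, had the highest median of the cluster. Its level was 0.14 to 1.39 TPM in het tumors with a median of 0.745, 1.00 TPM in the homo tumor, and 0.50, 0.62 and 0.28 TPM in wt 1, 2 and 3. Hoxa3, needed for thymus and parathyroid formation, and its neighbour Hoxa4 were highest in het 12, at 1.98 and 1.99 TPM, with het medians of 0.27 and 0.22 TPM. In the homo tumor they were 0.57 and 0.41 TPM, and in wt tumors at most 0.36 and 0.22 TPM. Hoxa10, which patterns the uterus, stood apart from these in that it was highest in het 14, at 1.16 TPM, and in het 10, at 0.97 TPM, while wt 2 held 0.74 TPM and het 1, het 7, het 11 and wt 3 held 0. The other HoxA genes, Hoxa2, Hoxa5, Hoxa6, Hoxa9, Hoxa11 and Hoxa13, stayed at 0.87 TPM or less in every tumor. Among them was Hoxa9, one of the mammary group 9 genes, with 0.04 to 0.87 TPM in het, 0.18 in homo and 0 to 0.26 TPM in wt tumors.

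The HoxB cluster held the most widely detected Hox gene, Hoxb2, which patterns the hindbrain and lies on the plus strand of chromosome 11 (chr11:96350525-96354012). It reached 1 TPM in 16 of 18 tumors. Its level was 1.21 TPM at lowest, 2.58 at the median and 10.39 at highest in het tumors, 9.58 TPM in the homo tumor, and 1.36, 0.62 and 0.57 TPM in wt 1, 2 and 3. The het 14 and het 10 tumors, at 10.39 and 9.43 TPM, and the homo tumor stood clear of the next tumor, het 5 at 5.49 TPM. Its neighbour Hoxb3 reached 1 TPM in 14 tumors and was highest in the homo tumor at 6.75 TPM, ahead of het 13 at 4.16 and het 14 at 3.90 TPM. Hoxb4, known for expanding blood stem cells, reached 1 TPM in 11 tumors and was also highest in the homo tumor, at 4.63 TPM. Hoxb7 ran from 0.27 to 3.10 TPM in het tumors, with 3.28 TPM in the homo tumor and 0.94, 1.23 and 0.53 TPM in wt 1, 2 and 3. Its high het tumors differed from those of Hoxb2: they were het 5, het 3, het 12 and het 1, at 3.10, 2.62, 2.41 and 2.25 TPM. Hoxb9, one of the mammary group 9 genes, was 5.45 TPM in het 14, 5.01 in het 10 and 4.77 TPM in the homo tumor. It was 1.56 TPM in het 9, at most 0.75 in the remaining het tumors, and 0.27, 0.40 and 0.36 TPM in wt 1, 2 and 3. Hoxb5, Hoxb6 and Hoxb8 did not reach 1 TPM in any tumor, and Hoxb1 and Hoxb13 did not exceed 0.02 TPM.

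The HoxC cluster held the highest Hox gene of all, Hoxc13, which lies at the tail end of the cluster (chr15:102921103-102928814, plus strand) and is needed for hair and nail formation. It was 20.5 TPM in the homo tumor. In het tumors it was 0 TPM at lowest, 2.10 at the median and 14.2 at highest, and in wt 1, 2 and 3 it was 1.45, 0.10 and 2.92 TPM. The highest het tumors were het 9 at 14.2, het 11 at 9.24, het 7 at 7.40 and het 3 at 5.03 TPM, and het 1 and het 12 had 0 counts. The adjacent Hoxc12 had at most 1 count in any tumor. Hoxc13 made up 50.1% of all Hox TPM in het 7 and 42.8% in het 9, but 27.8% in the homo tumor and 33.1% in wt 3. Hoxc4, Hoxc5 and Hoxc6, at the head end, had other high tumors. Hoxc4, a regulator of antibody gene diversification in B cells, was 8.92 TPM in het 10, 7.65 in het 14, 4.04 in het 11 and 2.21 TPM in the homo tumor. In the other het tumors it was at most 1.18 TPM, and in wt tumors 0.40, 0.32 and 0.19 TPM. Hoxc5 was highest in het 11, at 2.66 TPM, and was 2.24 in het 14, 1.64 in het 10 and 1.35 TPM in the homo tumor. It was 0.30 TPM or less in wt tumors. Hoxc6 was highest in het 12, at 5.15 TPM, and had a median of 1.255 TPM in het tumors, with 2.57 TPM in the homo tumor and 0.41, 0.96 and 0.27 TPM in wt 1, 2 and 3. Hoxc8, the gene of mammary placement, was 0.05 to 2.24 TPM in het tumors with a median of 0.715, 0.99 TPM in the homo tumor and 0.26, 0.89 and 0.02 TPM in wt 1, 2 and 3. It was highest in het 11, and the next was het 5 at 2.03 TPM. Hoxc9 did not exceed 0.60 TPM, and Hoxc11 did not exceed 0.18 TPM.

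In the HoxD cluster, Hoxd8 had the highest levels. It was 0.39 to 5.94 TPM in het tumors with a median of 1.965, 3.57 TPM in the homo tumor and 1.43, 2.02 and 0.34 TPM in wt 1, 2 and 3. It was highest in het 10 and het 14, at 5.94 and 5.90 TPM, then in het 5 at 5.0 and het 12 at 4.48 TPM. Hoxd9, also a mammary group 9 gene, and Hoxd10, which acts in lumbar motor neurons, were highest in the homo tumor, at 2.55 and 1.29 TPM. The het tumors reached at most 1.81 TPM of Hoxd9 and 0.45 of Hoxd10, and the wt tumors 0.83 and 0.17 TPM. Hoxd4, a hindbrain gene, stayed at 0.99 TPM or less, and Hoxd1, Hoxd3 and Hoxd11 did not exceed 0.24 TPM.

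**Figure D2:**
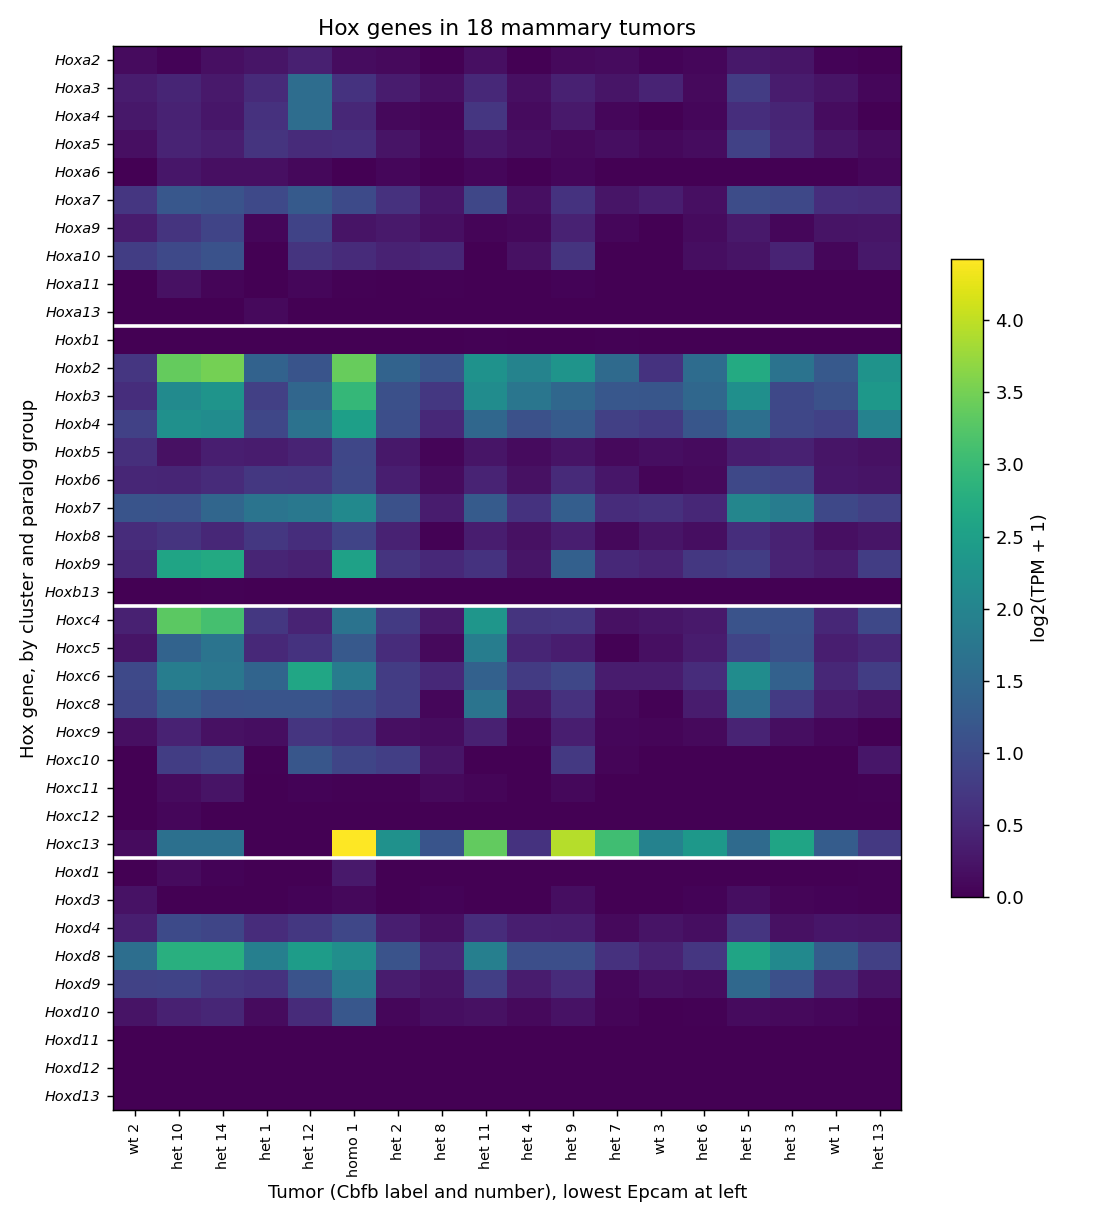
log2(TPM + 1) of Hox genes (rows, by cluster and paralog group) in the 18 tumors (columns, lowest Epcam at left). The columns of het 10, het 14, het 12 and the homo tumor hold the most bright cells. Hoxc13 is bright in the homo tumor and het 9, at 20.5 and 14.2 TPM, and at the darkest shade, 0, in het 1 and het 12.

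Across the 19 genes that reached 1 TPM, the highest tumor was het 12 for 6 genes, the homo tumor for 6, het 14 for 3, and het 10 and het 11 for 2 each. With het 14 left out, het 10 was highest for 4 genes and the homo tumor for 7. No wt tumor was highest for any of them. A gene could enter the 19 through its highest tumor alone, so these counts are a description. Hoxa3, Hoxa4 and Hoxc10 reached 1 TPM only in het 12, Hoxa10 only in het 14 and Hoxd10 only in the homo tumor. By log2 CPM, the homo tumor lay above all others in 4.35% of all genes tested, and that share was not computed for the other tumors. Of the HoxA genes that reached 1 TPM, most were thus highest in het 12. This tumor held 11.4 TPM of summed HoxA RNA where no other tumor exceeded 5.29 TPM.

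Set in order of Epcam, the tumors of low Epcam did not share 1 Hox level. The lowest, wt 2, had a Hox sum of 13.72 TPM with 2 genes at 1 TPM or more, although its summed TPM of 20 fibroblast and mesenchymal markers was 12908, with all of the list detected in the series. The next in order, het 10 and het 14, had sums of 55.32 and 55.7 TPM, 12 and 13 genes at 1 TPM, and fibroblast sums of 26150 and 26230 TPM. Then came het 1 with 18.98 TPM and 5 genes, and het 12 with 36.71 TPM and 13 genes, with fibroblast sums of 9271 and 21580 TPM. The homo tumor, next in the order, had 73.79 TPM and 14 genes, with a fibroblast sum of 4421 TPM, and the other 12 tumors had fibroblast sums of 353.9 to 2552 TPM.

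Among tumors with Epcam over 300 TPM the Hox sum ran from 7.41 in het 8 to 73.79 in the homo tumor, so high Epcam did not go with 1 level either. Hoxc13 had 3 of the 5 lowest-Epcam tumors below the lowest of the other 13, and no other Hox gene had more than 1. It was 0.10 TPM in wt 2, 2.09 in het 10, 2.11 in het 14 and 0 in het 1 and het 12, and in the other 13 tumors it was 0.56 to 20.5 TPM. Hoxd8 was 2.02, 5.94, 5.90, 2.77 and 4.48 TPM in wt 2, het 10, het 14, het 1 and het 12, against a median of 1.08 and a highest value of 5.0 TPM in the other 13. What part fibroblasts or other cells had in these levels was not tested. The order of the lowest 5 tumors was the same by log2 CPM of Epcam.

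**Figure D3:**
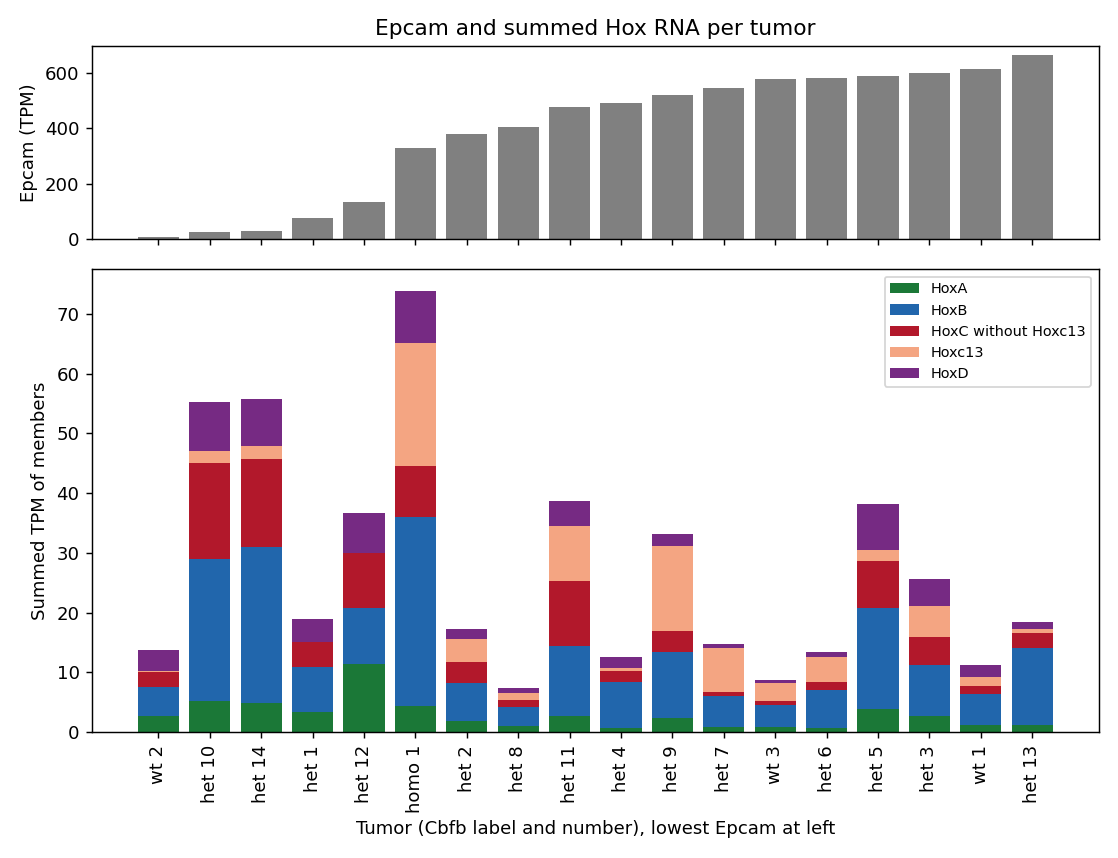
Epcam TPM (upper bars) and summed TPM of Hox genes by cluster, stacked (lower bars), in the 18 tumors, lowest Epcam at left. Hox sums of 55.32 and 55.7 TPM in het 10 and het 14 stand beside 13.72 TPM in wt 2, which has the lowest Epcam, and the homo tumor has the highest sum, 73.79 TPM.

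Markers of other tissues differed widely between tumors, and single Hox genes are set beside them here. Skeletal muscle markers, 10 genes, summed to 5491 TPM in het 5, 821.5 in het 1, 455.8 in het 11, 209.8 in the homo tumor and 175.3 in het 3, and to at most 38.38 TPM in the other 13 tumors. In het 5, het 1, het 11 and het 3, Hoxd8 was 5.0, 2.77, 2.75 and 3.30 TPM. In het 12, with 10.18 TPM of muscle markers, Hoxd8 was 4.48 TPM. It was highest in het 10 and het 14, at 5.94 and 5.90 TPM, with 29.55 and 28.19 TPM of muscle markers. Hair keratin genes were high in some tumors of high Hoxc13 and low in others. The sum of 5 hair keratin genes (Krt71, Krt25, Krt27, Krt33a and Krt35) was 1462.85 TPM in het 9, 657.13 in het 3 and 571.92 in het 7. In the homo tumor and in het 11, where Hoxc13 was 20.5 and 9.24 TPM, it was 1.86 and 5.95 TPM. In wt 1, 2 and 3 it was 3.23, 0 and 318.32 TPM. Other hair genes did not all follow the keratins. In the homo tumor, het 11 and het 3, Msx2 was 7.59, 2.52 and 6.84 TPM and Foxn1 1.71, 2.78 and 3.02 TPM. Dlx3 was 2.4, 4.49 and 37.01 TPM in the same tumors. The share of skin, muscle or fibroblast RNA in Hox values was not tested.

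**Figure D4:**
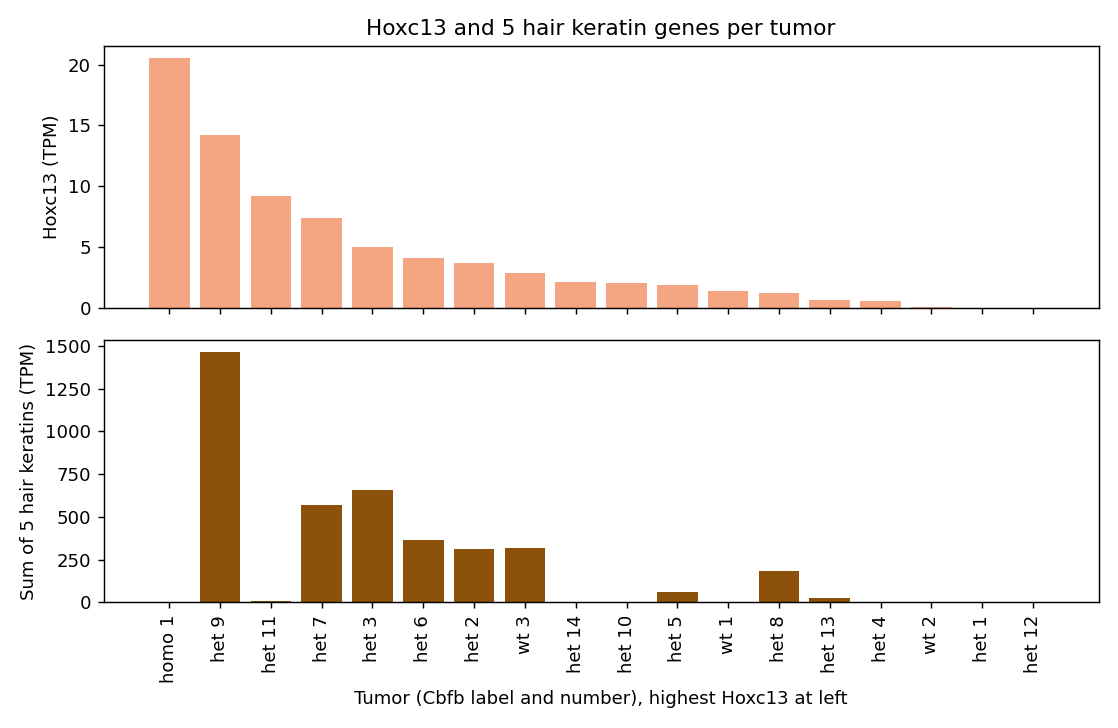
Hoxc13 TPM (upper bars) and the summed TPM of 5 hair keratin genes (lower bars) in the 18 tumors, highest Hoxc13 at left. The tumor with the highest Hoxc13, homo, has 1.86 TPM of hair keratins, and het 9, with the next highest Hoxc13, has 1462.85 TPM.

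No Hox gene passed the threshold between the 14 het and the 3 wt tumors. Of 18494 genes tested with edgeR's quasi-likelihood test, 0 were called at a Benjamini-Hochberg adjusted p under 0.05 (0.0% higher and 0.0% lower). At an unadjusted p under 0.05, edgeR gave 271 genes higher and 353 lower, DESeq2 597 and 337 with 0 called, and limma-voom 119 and 369 with 0 called. The low-count filter kept 26 of the 39 Hox genes, and a gene that is low in most tumors could pass it only by being high in some, so counts over these 26 are a description. At an unadjusted p under 0.05, 6 of the 26 were higher in het tumors, beside 1.47% of all genes tested, and 0 were lower, beside 1.91%. By sign, 25 of the 26 had a positive log2 fold change, beside 53.2% of all genes, and the median was 1.28, beside 0.03 for all genes. The exception was Hoxb5, at -0.16 ± 0.49 (SE). Every cluster had a positive median: 1.21 in HoxA (7 genes), 1.27 in HoxB (8), 1.64 in HoxC (7) and 0.91 in HoxD (4). In a fit with no filter, 34 of 37 Hox genes were positive. Of the 26, 0 were higher in all 14 het tumors than in all 3 wt tumors (0.0379% of all genes were) and 0 were lower in all (0.124% were). With 3 wt tumors, these p-values measure the spread between these tumors.

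The 6 genes were 3 HoxB genes of the head end and 3 HoxC genes. Their adjusted p was 0.999 each (edgeR quasi-likelihood test, Benjamini-Hochberg). Hoxb2 had a log2 fold change of 2.35 ± 0.71 (SE, unadjusted p = 0.00409), and 13 of 14 het tumors lay above the highest wt tumor in log2 CPM. In TPM the ranges overlap at het 12 and het 8, with 1.21 and 1.22 TPM, below the 1.36 TPM of wt 1. Hoxb3 was 0.64 TPM at lowest, 1.79 at the median and 4.16 at highest in het tumors, and 1.13, 0.49 and 1.27 TPM in wt 1, 2 and 3. Its log2 fold change was 1.26 ± 0.47 (SE, unadjusted p = 0.0152). Hoxb4 was 0.42, 1.345 and 3.66 TPM at lowest, median and highest in het tumors, and 0.82, 0.82 and 0.68 TPM in wt tumors. Its log2 fold change was 1.28 ± 0.49 (SE, unadjusted p = 0.0183). The 3 wt values lay close together, within the lower part of the het range.

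For Hoxc4 the wt values of 0.40, 0.32 and 0.19 TPM lay below the het median of 0.66 TPM but above the het low of 0.15 TPM. Its log2 fold change was 2.81 ± 1.28 (SE, unadjusted p = 0.0426), and 1.67 without het 10 and het 14 (unadjusted p = 0.0545). Hoxc6 was 0.27 TPM at lowest, 1.255 at the median and 5.15 at highest in het tumors, against 0.41, 0.96 and 0.27 TPM in wt tumors, with a log2 fold change of 1.64 ± 0.73 (SE, unadjusted p = 0.0371). Without het 10 and het 14 it was 1.47 (unadjusted p = 0.0584). Hoxc10, which marks motor neurons of the lumbar cord, had 0 counts in all 3 wt tumors, and in het tumors ran from 0 counts in 5 of 14 to 45 counts. It was above 3 counts in 7 of the het tumors. The mean of 0.407 CPM in het tumors was 4.96 times the limit of 3 counts per library, 0.0821 CPM on average in wt tumors. That limit covers counting error in these 3 wt tumors and not the spread between tumors. As 5 of 14 het tumors also had 0 counts, 4.96 is no minimum for a difference between the labels. Between het and wt tumors, edgeR's quasi-likelihood test gave an unadjusted p of 0.0261. The homo tumor held 0.89 TPM of it.

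The number of these genes that passed changed with the tumors left out. Leaving out a wt tumor also makes the wt group smaller, and these fits cannot tell that apart from the tumor itself. Without wt 3 the number higher at an unadjusted p under 0.05 was 2 of 27 Hox genes in the fit, beside 1.89% of all genes, and the Hox median was 0.91. Without wt 1 it was 3 of 27, beside 1.21%, with a median of 1.21. Without wt 2 it was 6 of 27, beside 1.8%, with a median of 1.97, and of these 6 Hoxb2, Hoxb4 and Hoxc6 had been among the first 6. Without het 10 and het 14 it was 4 of 25, beside 1.58%, with 24 of the 25 positive and a median of 1.15. Without wt 2, het 10 and het 14, the tumors of lowest Epcam, it was 3 of 26, beside 1.42%, with a median of 1.46. Hoxb2 was the one gene with an unadjusted p under 0.05 in every fit made, with a log2 fold change of 1.65 to 2.88 and an adjusted p of 0.246 to 0.999 (edgeR, DESeq2 and limma-voom, Benjamini-Hochberg). Markers of other cell types were also compared between het and wt tumors, and none passed the adjusted threshold. All 10 adipocyte markers were positive, with a median log2 fold change of 3.94 and 7 of 10 under an unadjusted p of 0.05. Their summed TPM was 67.64 to 1105 in het tumors and 47.52, 101.8 and 107.1 in wt 1, 2 and 3. The list split in het 10 and het 14, where Fabp4 held most of the sum, at 1084.31 and 1059.22 TPM. Lep was also highest there, at 9.16 and 9.31 TPM. Adipoq was 0.12 and 1.08 TPM and Cidea 0.67 and 0.93 TPM, below their het medians of 2.61 and 34.22 TPM. The 9 muscle genes tested also had a positive log2 fold change (median 5.77). Basal and myoepithelial markers were 10 of 10 positive (median 0.98), fibroblast markers 11 of 20 (median 0.17), endothelial markers 9 of 10 (0.15), leukocyte markers 8 of 13 (0.20), epithelial markers 17 of 20 (0.19) and hair genes 9 of 10 (1.47). Their part in the Hox values was not tested.

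**Figure D5:**
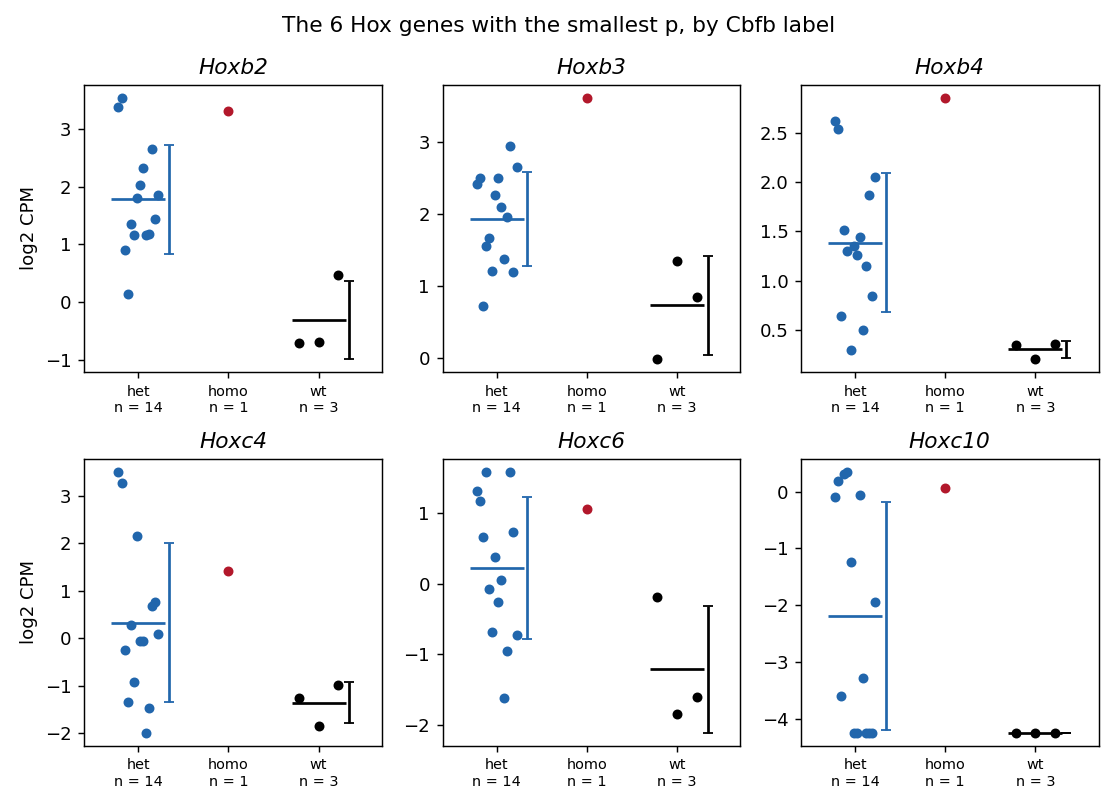
Log2 CPM of the 6 Hox genes with the smallest p in het (n = 14), homo (n = 1) and wt (n = 3) tumors. Points are tumors, lines are means and bars are SDs; 13 of 14 het tumors lie above all wt tumors for Hoxb2, and Hoxc10 is at 0 counts in all 3 wt tumors.

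Genes that bind, regulate or adjoin the Hox genes did not share their sign. The PBX and MEIS cofactors, which bind DNA beside HOX proteins, had 3 of 8 positive (median -0.06), with Meis1 at 0.69 ± 0.44, Meis3 at 0.47 ± 0.30 and Pbx3 at -0.63 ± 0.42 (SE). Of 31 Polycomb genes 15 were positive (median -0.01), and 1 lay under an unadjusted p of 0.05, Rbbp7, a histone-binding subunit, at -0.52 ± 0.17 (SE). Of 20 trithorax genes 4 were positive (median -0.14), with Kmt2d, a histone methyltransferase, at -0.54 ± 0.28 (SE). Of 9 upstream regulators and ParaHox genes 4 were positive (median -0.01). Of 9 genes that flank the clusters 5 were positive (median 0.06), and Calcoco2 beside HoxB lay under an unadjusted p of 0.05, listed at 0 TPM in all 3 wt tumors and at up to 1.57 TPM in het tumors. Other flanking genes were Lnpk beside HoxD at -0.14 ± 0.19 and Cbx5 beside HoxC at -0.31 ± 0.35 (SE). None of these passed the adjusted threshold.

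Noncoding genes inside the clusters shared the sign of most Hox genes, and none passed the adjusted threshold: all 4 tested were positive, with a median of 1.64, of 16 listed that the files hold. Hoxb3os, antisense to Hoxb3, had a log2 fold change of 1.54 ± 0.69 (SE, unadjusted p = 0.0397), and it shares 52.9% of Hoxb3's exonic bases and 27.3% of Hoxb2's on the opposite strand. The strand setting of the counting is not given in the sources used here, so reads of these genes may not be told apart. Gm53, a lincRNA between Hoxb13 and Hoxb9, was 13.88 TPM in the homo tumor, 9.4 in het 14 and 8.83 in het 10, and 0.47, 0.18 and 1.25 TPM in wt 1, 2 and 3. These are the 3 tumors in which Hoxb9 was highest. Hottip had 0 counts in every tumor, and 5 microRNA genes of the clusters (Mir10a, Mir10b, Mir196a-1, Mir196a-2 and Mir196b) also had 0 counts in all 18. For genes this short, 0 counts do not show that the microRNAs are absent. Mir196b also shares 85 exonic bases with Hoxa9 on the same strand. In the annotation, 10 Hox genes share exonic bases with a gene on the opposite strand and 9 with one on the same strand. Of Hoxc10's exonic bases, 166 are shared with Hoxc5, and of Hoxd4's, 39.1% with Gm28230, so their values are uncertain to that degree.

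The homo tumor was the single tumor with the most Hox RNA, and it has no replicate and no test. All 26 Hox genes that passed the filter were over 2-fold higher in it than the mean log2 CPM of the 3 wt tumors, beside 14.9% of all genes, and 0 were over 2-fold lower, beside 6.43%. The smallest difference was 1.27 in Hoxa7 and the largest from a detected wt level was 4.61 in Hoxc13, both on the log2 scale. In Hoxb2, Hoxb9 and Hoxd10 the difference was 3.62, 3.68 and 3.74. Hoxd10 had 2, 7 and 0 counts in wt 1, 2 and 3, so its difference depends on the prior count used for log2 CPM. In 8 of the 26 the homo tumor lay above all 17 others (Hoxb3, Hoxb4, Hoxb5, Hoxb7, Hoxb8, Hoxc13, Hoxd9 and Hoxd10), beside 4.35% of all genes, and in 0 below all, beside 3.5%. Single het tumors set against the same mean gave 24 of 26 Hox genes over 2-fold higher in het 10, 22 in het 5, 20 in het 14, 19 in het 12 and 2 in het 7, beside 10.7% to 16.5% of all genes. Basal and myoepithelial markers summed to 23850 TPM in the homo tumor, against 1323 to 11570 in het tumors and 8576, 1651 and 1868 in wt 1, 2 and 3. The next highest sums were in het 11, het 14 and het 10. The list split in het 14 and het 10. Krt14 was 6101.29 and 5821.46 TPM and Trp63 131.21 and 131.64 TPM, above their het medians of 2785 and 36.87 TPM. Cnn1 was 2.83 and 2.47 TPM and Oxtr 0.46 and 0.53 TPM, below their het medians of 8.215 and 5.345 TPM. Acta2, at 157.91 and 155.67 TPM, lay near its het median of 144.6 TPM. Endothelial markers, 10 genes, were also highest in the homo tumor, at 326.8 TPM, with 267.7 in het 14 and 256.9 in het 10, and 109.5, 215.8 and 67.06 TPM in wt 1, 2 and 3. Their part in the Hox values was not tested.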

How the data were processed

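RNA was measured in 18 tumors. The authors deposited, per the file headers, RSEM's expected counts (estimated reads per gene, not normalized, not always whole) and TPM for each tumor. Per the submitters' processing notes, the build was mm10 and the tools were RSEM 1.3.1 and STAR 2.7.0f; the annotation release is not given in the sources used here, nor the strand setting. All 55450 gene IDs occur in GENCODE M21 of GRCm38. Expected counts were rounded to whole numbers; 6.20% to 7.19% of gene values per tumor were not whole. The 14 het and 3 wt tumors were compared with edgeR 4.0.16 in R 4.3.3 (filterByExpr, TMM, robust quasi-likelihood test, no covariate), adjusted over 18494 genes by Benjamini-Hochberg, threshold 0.05. The SE was taken from the fold change and F. Log2 CPM used TMM factors of all 18 tumors and a prior count of 2. For Cbfb, an exact permutation test (two-sided, 680 splits) was used. The deposited FPKM values were not used. The values of 1 Hox gene are not reported here, singly or in plots of single genes, though it counts in totals. The Hox genes and the other gene lists were chosen with earlier results of these data known. Named levels are, per cluster, the 4 genes of highest median TPM and the 3 of widest log2 CPM range, and named folds the 6 of smallest p; other genes named were chosen after their values were seen. Alternatives were DESeq2 1.42.0, limma-voom 3.58.1, RLE size factors, no low-count filter, an Epcam covariate, all tumors in 1 fit and leaving out tumors.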

Additional observations from a re-analysis of the deposited data

How the results depend on the processing

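Of 109 values recomputed under alternatives, 100 kept their direction and their side of the threshold (counts: within 1.5 times), 7 moved, 1 reversed and 1 newly passed. The order of tumors by Epcam was counted among the 100 because the lowest 5 tumors were the same by log2 CPM. Of all 18 tumors, 7 held the same place in that order. The threshold was 0.05, on the adjusted p for Hox folds and on the unadjusted permutation p for Cbfb. The value that newly passed was the Cbfb difference without wt 1 (exact permutation test, p = 0.0333), and no named Hox fold passed. The unadjusted p was less stable: of 72 such values of the 6 named Hox genes, 20 were 0.05 or more, 0 of 12 for Hoxb2, 2 each for Hoxb3 and Hoxb4, 4 for Hoxc6, 5 for Hoxc10 and 7 for Hoxc4. The number of genes called was 1, Tex11, with no low-count filter and with all 18 tumors in 1 fit, against 0 in the main comparison. The number of Hox genes at an unadjusted p under 0.05, 6 in the main comparison, was 3 with limma-voom (beside 0.643% of all genes higher), 11 with Epcam as a covariate (3.87%) and 3 without the tumors of low Epcam, wt 2, het 10 and het 14 (1.42%). It was 8 with DESeq2 (3.23%) and with no filter (1.5%), and 2 to 6 when wt 1, wt 2, wt 3 or het 14 was left out. Leaving out het 10 and het 14 together, an alternative chosen after seeing the data, gave 4. The difference in Cbfb, 0.614 on the log2 scale, was -0.0296 without the tumors of low Epcam, and 0.177 to 0.985 when wt 1, wt 2, wt 3 or het 14 was left out. The cause was not tested. The exclusions of single het tumors other than het 14 were not run. No paired analysis was possible because the labels' repeat tag is the same in every tumor and the numbers used here follow accession order. With 3 wt tumors, and Hox genes at few counts, depth and group size limit what can be seen.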
